A study of Mus musculus with 30 samples.

Results

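The tissue inhibitors of metalloproteinases and the lysyl oxidases of the mouse were followed as 9 genes chosen by family membership: Timp1, Timp2, Timp3 and Timp4, and Lox with its relatives Loxl1, Loxl2, Loxl3 and Loxl4. All 9 were listed among the 19468 genes of the kidney table and the 19685 genes of the pancreas table. Their RNA was measured by poly(A) RNA sequencing in kidneys and pancreases of C57BL/6 mice, 30 libraries in 6 groups of 5. Every mouse drank 0.2 mg/ml doxycycline for 7 days. In i4F mice a doxycycline-inducible cassette encodes Oct4, Sox2, Klf4 and Myc, the factors that reprogram somatic cells. The kidney groups were labelled i4F p53 KO, i4F Ink4a/Arf KO and i4F with neither deletion. The pancreas groups were labelled p53 KO, with i4F not named in that genotype label, i4F Ink4a/Arf KO and i4F. The labels give 5 mice per strain, and p-values measure the spread between these libraries, each a whole tissue and not a sorted cell type.

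TIMPs are secreted proteins that bind the active site of matrix metalloproteinases, the enzymes that cut collagen and other matrix proteins. Timp1 is known as the inducible member in injured tissue, Timp2 as a broadly expressed one that also takes part in activating Mmp2, Timp3 as the one that stays bound to the matrix and also blocks ADAM proteases, and Timp4 as the most restricted. Lysyl oxidases are secreted copper enzymes that oxidise lysines of collagen and elastin, which then form the cross-links that stiffen a fibre. Lox and Loxl1 are made with a propeptide that Bmp1 and related proteases remove, and Loxl1 is tied to elastic fibres. Loxl2, Loxl3 and Loxl4 carry scavenger receptor domains in place of that propeptide.

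The genes lie apart in the mm10 genome (GENCODE M21). Timp1 is at chrX:20870166-20874735, Timp2 at chr11:118301069-118355740, Timp3 at chr10:86300372-86349506 and Timp4 at chr6:115241892-115252205. Loxl1 is at chr9:58287738-58313186, Loxl2 at chr14:69609068-69695834, Loxl3 at chr6:83034173-83052562 and Loxl4 at chr19:42593982-42612813. Timp1, Timp3 and Timp4 each share their locus with a synapsin gene on the opposite strand (Syn1, Syn3 and Syn2), and Loxl3 overlaps Htra2 on the opposite strand. The libraries were stranded, but whether the counting used strand is not given in the sources used here. The highest synapsin values were 1.84 FPKM for Syn1 in pancreas, 3.82 FPKM for Syn3 in kidney and 2.74 FPKM for Syn2 in pancreas, while Htra2 reached 27.7 FPKM in pancreas, so reads of Htra2 and Loxl3 could be mixed. Timp4 never exceeded 2.46 FPKM in any library, the same range as Syn2.

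Promoter sequences are shown for the inhibitor that differed most between genotypes, Timp1, and for the pair of inhibitors that differed less, Timp2 and Timp3. Loxl4 is shown as the only lysyl oxidase with a matching window. The RefSeq windows (GRCm38.p6) run from 250 bases before to 50 bases after the start that RefSeq annotates. That start differs from the GENCODE gene end given above for Timp2, Timp3 and Loxl4. The Timp2 window lies wholly inside the gene as GENCODE places it, so it need not be upstream sequence. Of the 9 members 5 had a matching window, namely the TIMP genes and Loxl4. They are written 5′ to 3′ along the gene's own strand, with capitals on each match to the Sp1 letters GGGCGG in either orientation. They lie at chrX:20869916-20870215 (plus strand), chr11:118355362-118355661 (minus), chr10:86300162-86300461 (plus) and chr19:42612757-42613056 (minus).
Timp1: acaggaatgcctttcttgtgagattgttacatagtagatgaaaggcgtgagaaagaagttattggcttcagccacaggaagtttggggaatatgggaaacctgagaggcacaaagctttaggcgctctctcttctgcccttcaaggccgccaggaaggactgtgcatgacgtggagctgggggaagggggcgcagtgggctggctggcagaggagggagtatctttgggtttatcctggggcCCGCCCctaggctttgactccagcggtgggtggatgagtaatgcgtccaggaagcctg
Timp2: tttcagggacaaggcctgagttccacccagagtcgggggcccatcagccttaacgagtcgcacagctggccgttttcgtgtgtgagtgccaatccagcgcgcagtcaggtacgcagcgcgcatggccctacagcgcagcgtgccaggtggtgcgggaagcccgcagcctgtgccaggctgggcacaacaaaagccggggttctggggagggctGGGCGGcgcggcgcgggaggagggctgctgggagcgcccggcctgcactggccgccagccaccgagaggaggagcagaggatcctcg
Timp3: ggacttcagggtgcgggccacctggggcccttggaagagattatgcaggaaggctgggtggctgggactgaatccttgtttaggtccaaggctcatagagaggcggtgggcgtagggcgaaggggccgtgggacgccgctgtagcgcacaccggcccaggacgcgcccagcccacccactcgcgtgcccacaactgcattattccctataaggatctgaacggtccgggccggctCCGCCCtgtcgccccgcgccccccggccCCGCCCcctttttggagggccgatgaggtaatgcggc
Loxl4: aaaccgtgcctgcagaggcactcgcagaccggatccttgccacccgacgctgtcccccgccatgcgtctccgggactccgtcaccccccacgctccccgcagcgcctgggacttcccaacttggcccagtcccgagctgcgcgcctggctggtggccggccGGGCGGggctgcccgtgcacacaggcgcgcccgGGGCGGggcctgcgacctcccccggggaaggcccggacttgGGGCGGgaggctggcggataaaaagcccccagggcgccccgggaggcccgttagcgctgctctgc
Of 32851 promoters of this length, 35.7% held GGGCGG on either strand. The Loxl4 window held it 3 times, starting 89, 56 and 15 bases before the start, and 32 CpG dinucleotides, against a median of 7 over all promoters. Timp2 held 25 CpG and Timp3 24, while Timp1 held 8. The Timp1 window also held the hypoxia response letters ACGTG from 82 bases before the start, as did 19.6% of all promoters. None of these 4 windows held the exact AP-1 letters TGANTCA, present in 7.81% of promoters. Near matches, such as TGAGTAA in the Timp1 window, were not counted, so the search cannot tell whether a window lacks an AP-1 site.

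In kidney the targeted gene followed its label. Trp53 averaged 7.04 ± 2.12 FPKM in i4F p53 KO kidneys, 15.9 ± 1.90 in i4F Ink4a/Arf KO kidneys and 16.4 ± 2.2 in i4F kidneys (SD, n = 5 each), and it fell in p53 KO against i4F by 1.14 on the log2(FPKM + 1) scale (SE 0.15, limma adjusted p = 0.00547). In pancreas it went against the label, with 15.6 ± 7.12 FPKM in the libraries labelled p53 KO, 2.89 ± 0.799 in i4F Ink4a/Arf KO pancreases and 3.4 ± 2.14 in i4F, and after scaling its difference to i4F was 0.16 (adjusted p = 0.388), so that group is called by its label throughout. Pou5f1, the gene of Oct4, had 24.6 to 98.2 FPKM in all 5 of those libraries, against 0.0456 to 1.91 in i4F Ink4a/Arf KO pancreases and 0 to 1.14 in i4F, and its scaled difference to i4F was 3.49 (limma adjusted p = 1.39e-06). FPKM per gene cannot tell cassette RNA from that of the mouse's own gene. Those labelled libraries stood apart as a whole: 10507 to 13194 genes reached 1 FPKM in them, against 6867 to 7892 in i4F Ink4a/Arf KO pancreases and 6596 to 9852 in i4F. Acinar marker transcripts, the digestive enzymes of the exocrine pancreas, held 0.923 to 38.1% of all FPKM in them, against 46.8 to 55.1% in i4F Ink4a/Arf KO pancreases and 39.7 to 53.3% in i4F. FPKM are shares of a library, so each pancreas result is given on the deposited scale and after median-of-ratios scaling, which divides a library by its median ratio to the tissue's average library. Fewer cells of a type and less RNA per cell cannot be told apart in whole tissue.

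Timp1 gave the largest difference of the family. It stood at 294, 361, 335, 144 and 828 FPKM in the 5 pancreases labelled p53 KO, at 0.256, 0.745, 2.01, 0.992 and 0.839 FPKM in the i4F Ink4a/Arf KO pancreases, and at 0.162, 0.483, 0.778, 1.47 and 2.09 FPKM in the i4F pancreases. Every labelled p53 KO library lay above every other pancreas library, and the ratio of the means to i4F was 394. After scaling the means were 135 ± 57.4 FPKM in p53 KO-labelled, 1.66 ± 1.12 in i4F Ink4a/Arf KO pancreases and 1.36 ± 0.856 in i4F pancreases (SD, n = 5 each), a ratio to i4F of 99.3. On the log2(FPKM + 1) scale, which understates changes from low levels, Timp1 rose by 7.48 against i4F (SE 0.38, 95% interval 6.69 to 8.28, limma adjusted p = 3.58e-10), and by 5.83 after scaling (SE 0.33, 95% interval 5.13 to 6.53, adjusted p = 9.89e-09). Timp1 entered the test through the labelled libraries alone, since only 3 other pancreases reached 1 FPKM. A rise was thus partly fixed by the filter.

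Timp2 did not follow it. Its levels were 105, 88.6, 28.0, 12.8 and 84.0 FPKM in the pancreases labelled p53 KO. The i4F Ink4a/Arf KO pancreases had 7.37, 8.03, 8.80, 12.0 and 8.14 FPKM, and the i4F pancreases 6.24, 7.10, 11.8, 26.4 and 10.9 FPKM. Replicate 4 of the labelled group lay within the i4F range. The deposited difference to i4F of 2.07 (SE 0.48, adjusted p = 0.000519) was 0.11 after scaling, with a 95% interval of -0.46 to 0.68 (adjusted p = 0.728). With libraries scaled instead to equal FPKM outside the acinar list it was 1.52, so the call for Timp2 depended on the scaling.

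Timp3 lay between them. It stood at 144, 131, 35.1, 8.22 and 190 FPKM in the pancreases labelled p53 KO, against 5.60, 3.92, 4.11, 3.42 and 3.12 in i4F Ink4a/Arf KO pancreases and 4.18, 3.35, 3.87, 7.90 and 10.5 in i4F. Again 4 of the 5 labelled libraries were above all i4F libraries, and replicate 4 was not. Timp3 rose by 3.34 (SE 0.61, adjusted p = 5.77e-05), and by 1.42 after scaling (SE 0.42, adjusted p = 0.00756). Timp4 stayed below 1 FPKM in all pancreases but replicate 1 labelled p53 KO, which had 2.46 FPKM, and it was not in the fit across genes. By an exact permutation test its p was 0.984 against i4F.

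**Figure D1:**
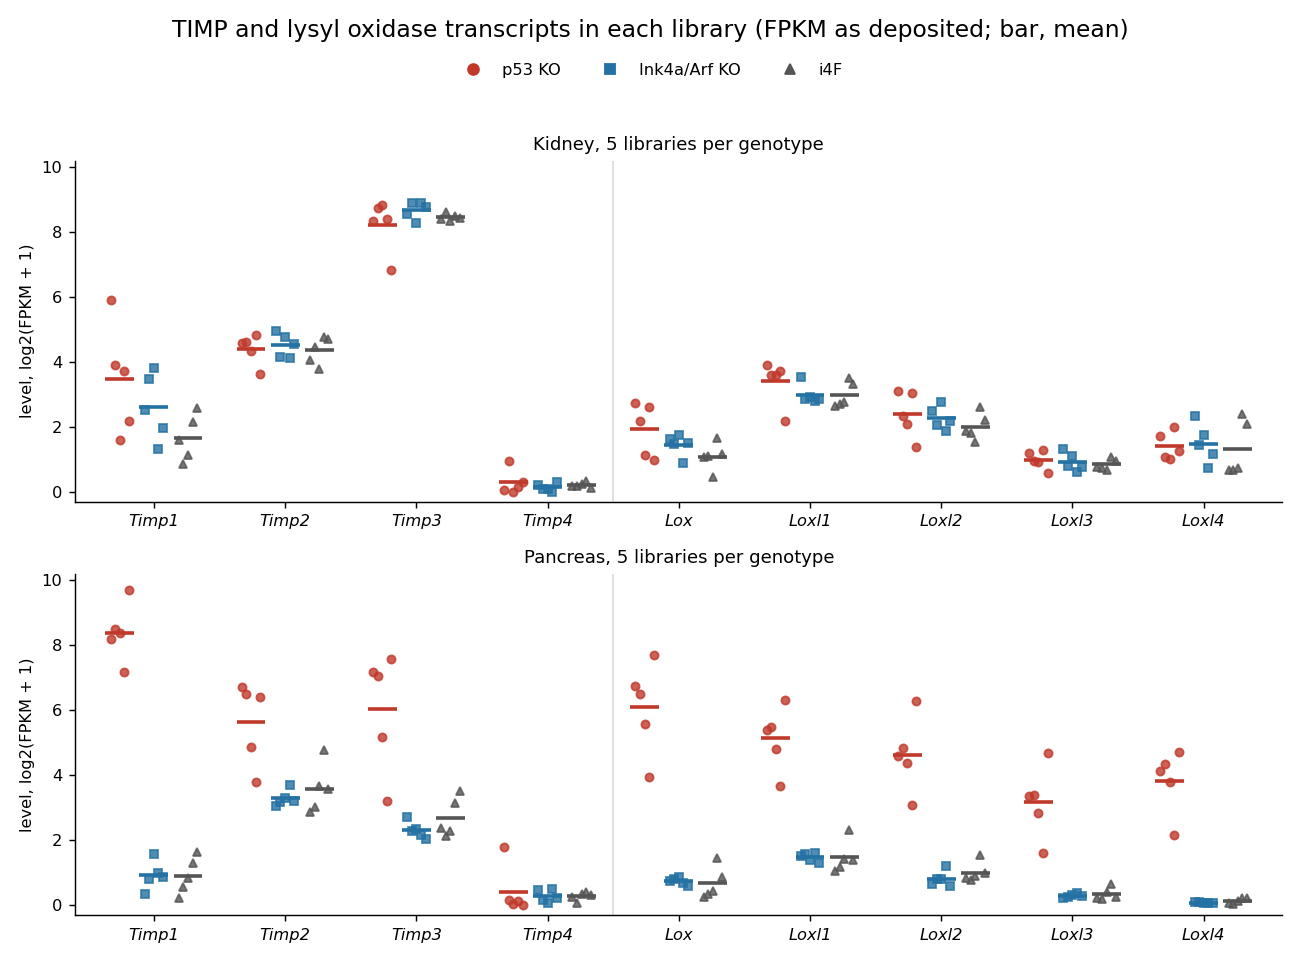
Level of each gene as log2(FPKM + 1) in every library, kidney and pancreas in separate panels, with 1 point per library, colours for the genotype labels and a bar at the group mean. In pancreas the libraries labelled p53 KO lay above all others for Timp1 and the 5 lysyl oxidases, while the kidney genotypes overlapped for every gene. On this deposited scale 73% of all genes tested in pancreas lay wholly above i4F in the labelled libraries.

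All 5 lysyl oxidases were higher in the pancreases labelled p53 KO, with no overlap between groups on either scale. Of all genes tested, 73% as deposited and 22.9% after scaling likewise lay wholly above i4F. All lysyl oxidases but Loxl1 entered the test through the labelled libraries alone, so for them a rise was partly fixed by the filter. Lox, the founding member, lies at chr18:52516067-52529867 (mm10). It had 105, 89.2, 46.7, 14.4 and 205 FPKM in the labelled p53 KO libraries, 0.684, 0.740, 0.837, 0.591 and 0.507 in i4F Ink4a/Arf KO pancreases and 0.203, 0.272, 0.365, 1.76 and 0.831 in i4F. The lowest labelled library, replicate 4, was still above the highest i4F library. The ratio of means to i4F was 134, and 32 after scaling. Lox rose by 5.41 (SE 0.48, adjusted p = 9.94e-08) and by 3.84 after scaling (SE 0.30, adjusted p = 1.68e-07).

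Loxl1, the elastic fibre enzyme, had 41.3, 44.1, 27.2, 11.6 and 78.8 FPKM in the pancreases labelled p53 KO, against 1.48 to 2.02 in i4F Ink4a/Arf KO pancreases and 1.09 to 3.93 in i4F. It was the most abundant lysyl oxidase per length in the other pancreas groups, where the remaining members were mostly below 1 FPKM. Loxl1 rose by 3.67 (SE 0.37, adjusted p = 2.61e-07) and by 1.91 after scaling (SE 0.18, adjusted p = 8.62e-07). Loxl2, which cross-links the basement membrane collagen IV, had 22.9, 27.7, 19.7, 7.45 and 76.8 FPKM in the labelled libraries, against 0.491 to 1.29 in i4F Ink4a/Arf KO pancreases and 0.722 to 1.90 in i4F. Its difference to i4F was 3.63, and 1.97 after scaling (adjusted p = 1.12e-05).

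Loxl3 and Loxl4 were at or near the bottom of the measured range outside that group. Loxl3 had 9.37, 9.60, 6.09, 2.05 and 24.9 FPKM in the pancreases labelled p53 KO, against 0.157 to 0.286 in i4F Ink4a/Arf KO pancreases and 0.135 to 0.587 in i4F. Loxl4 had 16.6, 19.4, 12.8, 3.43 and 25.3 FPKM in the labelled libraries, against 0.0481 to 0.0651 in i4F Ink4a/Arf KO pancreases and 0.0278 to 0.166 in i4F. They rose by 2.84 and 3.69 on the deposited scale, and after scaling by 1.53 (adjusted p = 1.82e-05) and 2.38 (adjusted p = 3.69e-08). Both entered the test through the labelled libraries alone, with 0 other pancreases at 1 FPKM, so a rise was partly fixed by the filter. Leaving out any labelled library removed both from the test. Of the lysyl oxidases, Loxl4 had the largest ratio of means to i4F, 153 as deposited and 36.1 scaled.

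As deposited, 8 of the 8 members tested passed the threshold upward against i4F, but so did 91.2% of all genes tested, and the median over all genes was 1.58. After scaling 7 of 8 passed, beside 33.7% of all genes and a median of 0.02. Groups did not overlap for 6 of the 8, beside 73% of all genes as deposited and 22.9% after scaling. Timp1, Lox, Loxl2, Loxl3 and Loxl4 entered the test through the labelled p53 KO libraries alone, since too few others reached 1 FPKM. Neither the counts over members nor the p-values of these genes are therefore support for their direction. The same holds against i4F Ink4a/Arf KO pancreases.

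**Figure D2:**
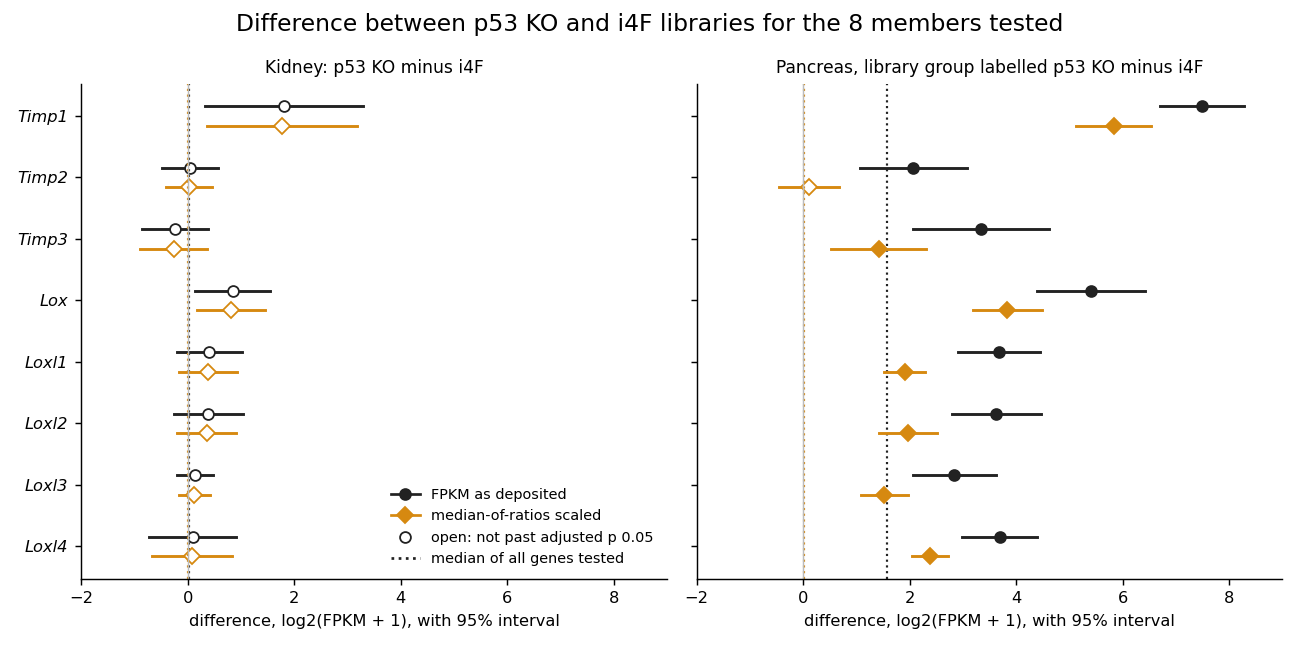
Difference in log2(FPKM + 1), p53 KO minus i4F, with its 95% interval for the 8 tested genes, in kidney and in the pancreas group labelled p53 KO. Circles are deposited FPKM, diamonds are scaled values, open symbols missed an adjusted p of 0.05, and dotted lines mark the median of all genes. In pancreas the scaled values run from 0.11 for Timp2 to 5.83 for Timp1, while in kidney no symbol is filled.

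Against i4F Ink4a/Arf KO pancreases, a comparison that uses the same labelled p53 KO libraries, 8 of 8 members passed upward as deposited (background 91.7%) and 7 of 8 after scaling (background 34.9%). The scaled differences were 5.68 for Timp1, 1.72 for Timp3, 3.63 for Lox, 1.79 for Loxl1, 2.15 for Loxl2, 1.55 for Loxl3 and 2.44 for Loxl4. Timp2 gave 0.31 (adjusted p = 0.313).

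The 5 labelled libraries differed among themselves. Replicate 4 had the lowest value of all 8 tested genes on the deposited scale, and replicate 5 the highest of all but Timp2. The acinar share of FPKM was 38.1% in replicate 4, 25.3% in replicate 3, 14.5% in replicate 2, 6.55% in replicate 1 and 0.923% in replicate 5. Scaling left Timp1 at 109 FPKM in replicate 4, above replicate 1 at 77.1, while Lox stayed lowest there at 11 FPKM, against 21.7 to 55.9 in the other labelled libraries. The part of the acinar content in the members' differences was not tested.

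The make-up of the inhibitor pool was unlike in that group, and shares within a library do not depend on its scaling. Timp1 made up 53.9 to 87.2% of the summed TIMP FPKM in the pancreases labelled p53 KO, against 1.88 to 13.4% in i4F Ink4a/Arf KO pancreases and 1.5 to 8.82% in i4F. Timp2 made up 7.02 to 19.2% there, against 54.1 to 71.2% in i4F Ink4a/Arf KO pancreases and 46.0 to 73.2% in i4F. The log2 ratio of Timp1 to Timp2 averaged 2.77 ± 0.95 in the labelled libraries and -3.68 ± 0.84 in i4F (SD, n = 5 each), a difference of 6.45. By an exact two-sided permutation test over all regroupings of the 10 libraries, adjusted over 30 tests of 5 ratios in 6 comparisons, its adjusted p was 0.0340, and the difference from i4F Ink4a/Arf KO, 6.04, had the same adjusted p. The smallest raw p of that design is 0.00794. For Timp3 to Timp2 the difference to i4F of 1.38 did not pass (exact permutation adjusted p = 0.0794).

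Within the lysyl oxidases, Lox held 37.1 to 53.9% of the summed FPKM in the pancreases labelled p53 KO, against 13.9 to 23.9% in i4F Ink4a/Arf KO pancreases and 8.88 to 22.1% in i4F. Loxl1 held 19.2 to 29.8% there, against 46.2 to 56.1% in i4F Ink4a/Arf KO pancreases and 42.8 to 51.9% in i4F. So Lox was the leading member in the labelled group and Loxl1 in both others. Loxl4 held 6.15 to 11.4% in the labelled group, against 1.25 to 1.79% in i4F Ink4a/Arf KO pancreases and 1.16 to 4.40% in i4F.

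**Figure D3:**
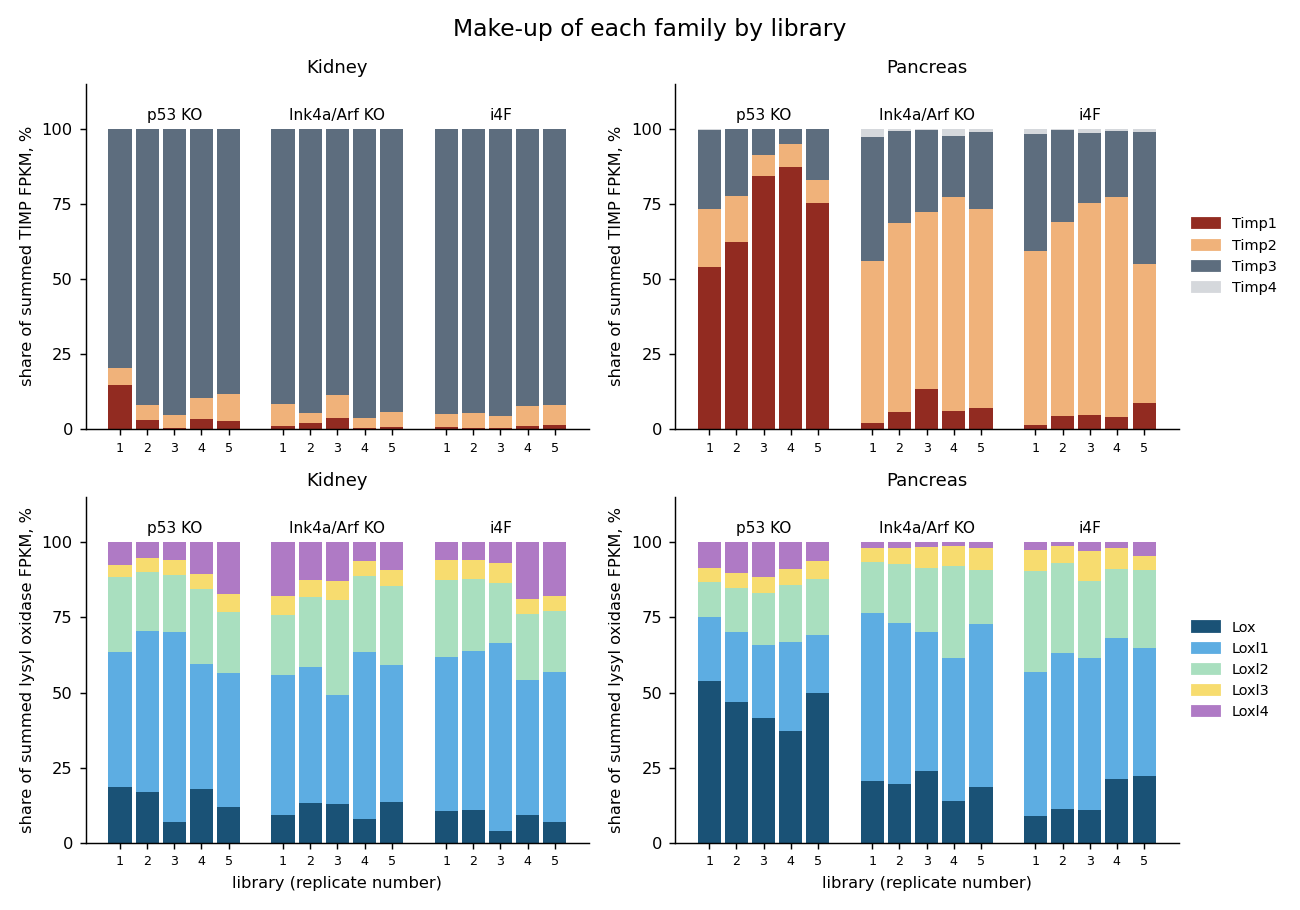
Share in percent of the summed TIMP FPKM (upper panels) and summed lysyl oxidase FPKM (lower panels) held by each gene in every library, by tissue. In the pancreases labelled p53 KO Timp1 fills 53.9 to 87.2% of the TIMP bar and Lox 37.1 to 53.9% of the lysyl oxidase bar, and in all kidneys Timp3 fills at least 79.8% of the TIMP bar.

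The substrates of these enzymes moved too. Of 11 fibrillar collagen genes 6 were tested, and all 6 rose in the pancreases labelled p53 KO against i4F, with a scaled median of 3.31. Read beside these list counts, 33.7% of all genes rose after scaling. List genes too could enter the test through the labelled libraries alone, and did so for 2 of the 6 fibrillar collagens, 6 of 17 elastic fibre genes, 6 of 18 in collagen maturation, 12 of 19 metalloproteinases, 2 of 6 other inhibitors, 1 of 5 copper genes and 5 of 11 Timp1 inducers. For such genes a rise is partly fixed by the filter. Scaled differences were 4.29 for Col1a1, the main chain of collagen I, 3.53 for Col3a1 and 3.08 for Col5a1. Col1a1 stood at 156 to 2935 FPKM in the labelled libraries, against 5.62 to 13.2 in i4F Ink4a/Arf KO pancreases and 4.92 to 22.0 in i4F. Of 17 elastic fibre genes 12 rose and 3 fell after scaling, with a median of 1.57. Fbn1 (fibrillin) rose by 2.29, Efemp2, known to bind Lox, by 2.14, and Eln (elastin) by 1.69, while Ltbp4 fell by 1.31. Ltbp4 was 0.52 on the deposited scale and did not pass there.

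The proportion of lysyl oxidases to collagen I was compared within libraries. Lox stood at a log2 ratio to Col1a1 of -3.62 ± 0.33 in the pancreases labelled p53 KO, -3.38 ± 0.62 in i4F Ink4a/Arf KO pancreases and -3.95 ± 0.29 in i4F, and the difference to i4F of 0.33 did not pass (exact permutation adjusted p = 0.330). With a pseudocount of 1 in place of 0.1 that difference was -0.87 and passed, so its sign depended on the pseudocount. Loxl1 to Col1a1 was lower, at -4.59 ± 0.57 in the labelled libraries, -2.08 ± 0.48 in i4F Ink4a/Arf KO pancreases and -2.40 ± 0.44 in i4F. Loxl2 to Col1a1 was lower as well, at -5.12 ± 0.49, -3.26 ± 0.35 and -3.15 ± 0.50 in the same 3 groups (SD, n = 5 each). Differences to i4F were -2.19 for Loxl1 and -1.97 for Loxl2, each with an exact permutation adjusted p of 0.0340 and no overlap. Col1a1 itself rose by 4.29 after scaling, beside a median of 0.02 over all genes. A lower ratio thus means only that Loxl1 and Loxl2 rose less than Col1a1. The share of all genes that were likewise lower relative to Col1a1 was not computed.

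**Figure D4:**
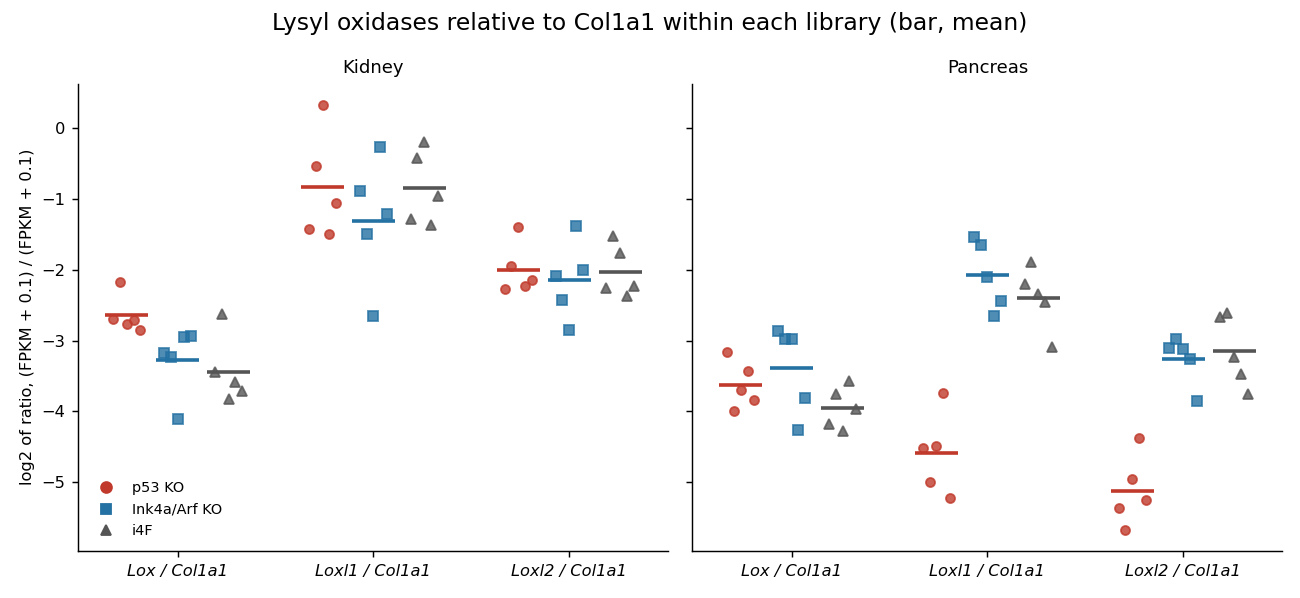
Log2 ratio of Lox, Loxl1 and Loxl2 to Col1a1 within each library, FPKM plus 0.1 on both sides, with 1 point per library and a bar at the group mean, kidney and pancreas in separate panels. In pancreas the libraries labelled p53 KO lie below all others for Loxl1 and Loxl2, with means of -4.59 and -5.12, and among the others for Lox.

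Genes that fold and trim procollagen, the step before cross-linking, mostly rose. Of 18 tested (of 24 listed), 15 rose and 2 fell after scaling, with a median of 1.18. Bmp1, the protease that trims procollagen and the Lox propeptide, rose by 2.37, the collagen chaperone Serpinh1 by 1.97, Pcolce2, which speeds that trimming, by 1.43 and the lysyl hydroxylase Plod3 by 0.91. The 2 that fell, P4hb and Ppib, are general folding proteins of the endoplasmic reticulum and changed by -1.97 and -1.90 after scaling, against 0.08 and 0.14 on the deposited scale, where neither passed.

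Of 30 metalloproteinase genes, a list of matrix metalloproteinases with ADAM and ADAMTS proteases, 19 were tested. Of these 16 rose and 1 fell after scaling with a median of 1.19. Mmp14, the membrane enzyme that activates Mmp2, rose by 2.56, Mmp2 by 2.10, Adam9 by 1.57, Adam15 by 1.19 and Adamts15 by 1.12, while Mmp15 changed by -0.57 after scaling and 1.19 as deposited. Among other protease inhibitors 4 of 6 rose and 1 fell after scaling. Tfpi2 rose by 1.86, whereas Spint2 changed by -0.88 scaled and 1.17 as deposited.

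Copper supply did not move one way. Of 5 tested genes 2 rose and 3 fell after scaling, and all 5 rose as deposited. Atp7a, the pump that loads copper into secreted enzymes such as Lox, rose by 0.45 and the copper chaperone Atox1 by 0.77, while the importer Slc31a1 changed by -0.46 and Cox17, which carries copper to mitochondria, by -0.86. The list of Timp1 inducers held genes of the AP-1 and STAT3 pathways, Il1b and Tgfb genes. Of these 11 of 11 tested rose after scaling, beside 33.7% of all genes, with a median of 1.17. Among those that would be tested without the labelled libraries it was 6 of 6. Junb rose by 2.99, Socs3, a STAT3 target, by 2.03 and Fosl1, tested through the labelled libraries alone, by 0.98.

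Markers of other cells moved with these groups. All 8 macrophage markers rose after scaling, Cd68 by 2.46, Mrc1 by 1.62 and Adgre1 by 1.52, and their summed scaled level was 235 to 408 in the pancreases labelled p53 KO, 75.9 to 127 in i4F Ink4a/Arf KO pancreases and 52.4 to 214 in i4F. Of 9 fibroblast markers 4 rose and 3 fell, and their summed scaled level was 124 to 258 in the labelled group, 172 to 289 in i4F Ink4a/Arf KO pancreases and 205 to 349 in i4F. Smooth muscle and pericyte markers summed to 47.4 to 156 scaled FPKM in the labelled group, 13.5 to 38.3 in i4F Ink4a/Arf KO pancreases and 14.4 to 36.3 in i4F, without overlap. Of 6 tested, 3 rose, among them Acta2 by 2.68 and Tagln by 2.28, and Rgs5 fell by 1.11. Mesothelial markers summed to 18.5 to 135 in the labelled group, 1.98 to 10.4 in i4F Ink4a/Arf KO pancreases and 1.00 to 11.4 in i4F, with Msln up by 4.63 and Upk3b at -0.38 (adjusted p = 0.529). Duct markers summed to 206 to 415 in the labelled group, 31.7 to 121 in i4F Ink4a/Arf KO pancreases and 28.7 to 75.4 in i4F, with Krt7 up by 3.82 and Krt19 by 3.11. Of 7 islet markers 4 fell and none rose. These examples outside the macrophage list were chosen after their values were seen. Of 7 endothelial markers none rose and 2 fell. Of 13 acinar markers 7 fell, among them Cel by 6.11, and 2 rose. The 2 that rose were Cela2a and Pnlip. Cela2a and Ctrb1 are listed at 0 in every i4F Ink4a/Arf KO and i4F pancreas and Pnlip in every i4F pancreas, unlikely levels for enzymes of acinar cells, so no change was read from these 3 genes. The part of these cell types in the family's differences was not tested.

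In kidney no member passed the threshold. Among p53 KO against i4F kidneys 0 of 8 tested members were called, beside 0.257% of all genes (32 by limma, with 1641 at an unadjusted p under 0.05). Timp1 had 59.0, 13.9, 2.06, 12.1 and 3.59 FPKM in i4F p53 KO kidneys, 4.71, 10.1, 12.9, 1.52 and 2.91 in i4F Ink4a/Arf KO kidneys and 2.00, 0.800, 1.22, 3.43 and 4.96 in i4F kidneys. Of the p53 KO kidneys 3 lay above all i4F kidneys and 2 lay among them. The difference to i4F was 1.81 (SE 0.69, 95% interval 0.32 to 3.29, limma adjusted p = 0.276), and 1.19 without p53 KO replicate 1. Lox had 5.73, 3.5, 1.21, 5.17 and 0.969 FPKM in i4F p53 KO kidneys, 2.10, 1.80, 2.35, 0.834 and 1.83 in i4F Ink4a/Arf KO kidneys and 1.09, 1.13, 0.381, 2.13 and 1.25 in i4F kidneys. Its difference to i4F was 0.85 (95% interval 0.13 to 1.56, limma adjusted p = 0.288).

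The remaining kidney differences to i4F lay between -0.23 for Timp3 and 0.41 for Loxl1. Timp3 was by far the most abundant inhibitor per length in kidney, at 330 ± 133 FPKM in i4F p53 KO, 413 ± 69.3 in i4F Ink4a/Arf KO kidneys and 351 ± 28.4 in i4F kidneys (SD, n = 5 each). One p53 KO kidney, replicate 5, had 112 FPKM of it, and the other 4 had 324 to 451. Timp2 stood at 11.4 to 27.6 FPKM in i4F p53 KO, 16.4 to 29.8 in i4F Ink4a/Arf KO kidneys and 12.8 to 26.3 in i4F kidneys. Timp4 was at most 0.950 FPKM in any kidney, with an exact permutation p of 0.873 for p53 KO against i4F, and its genotypes overlapped.

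Loxl1 was the most abundant lysyl oxidase per length in all 3 kidney groups, with 41.9 to 63.3% of their summed FPKM in i4F p53 KO, 36.2 to 55.6% in i4F Ink4a/Arf KO kidneys and 44.7 to 62.3% in i4F. It stood at 13.9, 11.1, 11.1, 12.2 and 3.58 FPKM in i4F p53 KO kidneys, against 5.88 to 10.7 in i4F Ink4a/Arf KO kidneys and 5.27 to 10.3 in i4F. Loxl2 ranged over 1.63 to 7.68 FPKM in i4F p53 KO, 2.67 to 5.74 in i4F Ink4a/Arf KO kidneys and 1.91 to 5.11 in i4F kidneys. Loxl3 stayed at or below 1.49 FPKM in every kidney. Loxl4 split the i4F kidneys, with 0.601, 0.605 and 0.651 FPKM in replicates 1 to 3 and 4.31 and 3.22 FPKM in replicates 4 and 5.

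Between p53 KO and Ink4a/Arf KO kidneys 0 of 8 members passed (background 0.265%), with 0.85 for Timp1 (adjusted p = 0.541), 0.49 for Lox (adjusted p = 0.453) and -0.45 for Timp3 (adjusted p = 0.425). Without p53 KO replicate 1 Timp1 gave 0.24 and Lox 0.28, and without p53 KO replicate 5 Timp3 gave -0.099. Without the 4 kidneys above 100 FPKM of the pancreatic transcript Clps, Timp1 gave 1.43 and Timp3 -1.09 (adjusted p = 0.0646). The ratio of Lox to Col1a1 was the exception, at -2.64 ± 0.27 in i4F p53 KO kidneys and -3.28 ± 0.48 in i4F Ink4a/Arf KO kidneys (SD, n = 5 each), a difference of 0.64 without overlap (exact permutation adjusted p = 0.0340). It lost the call without any 1 of the p53 KO replicates or without Ink4a/Arf KO replicate 3 (adjusted p 0.0595 to 0.106), and with a pseudocount of 1 (0.51, adjusted p = 0.238). Between Ink4a/Arf KO and i4F no member passed in kidney (background 0%, 398 genes at an unadjusted p under 0.05) or in pancreas (background 0%, 36 genes at an unadjusted p under 0.05). The largest of those member differences was 0.96 for kidney Timp1 (95% interval -0.53 to 2.44), and in pancreas they lay between -0.38 for Timp3 and 0.06 for Lox.

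Across the 15 kidneys Timp1, Lox and Loxl2 varied together. Pearson's r of scaled log2 levels was 0.850 between Timp1 and Lox (100000 permutations, adjusted p = 0.00049 over 7 relations) and Spearman's rho 0.832 (adjusted p = 0.00182). Without p53 KO replicates 1 and 2, the farthest from the median of Timp1, r was 0.741 over 13 kidneys, and within genotypes it was 0.773. For Loxl2 r was 0.725 (permutation adjusted p = 0.00602) and rho 0.707 (adjusted p = 0.0157), with 0.658 over 13 kidneys and 0.686 within genotypes. For Loxl1, Loxl3, Loxl4, Timp2 and Timp3 r lay between -0.19 and 0.54, none past the threshold, although rho passed for Loxl3 (0.657, adjusted p = 0.0227) and Loxl4 (0.596, adjusted p = 0.0382). These 7 relations were chosen after the kidney values were seen. The share of all genes that ran as closely with Timp1 was not computed, and genes outside the family ran closer, such as Ddx21 with r of 0.93. The relations are thus not shown to be particular to these genes. The permutations exchanged kidneys across genotypes, and the r within genotypes was not tested.

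**Figure D5:**
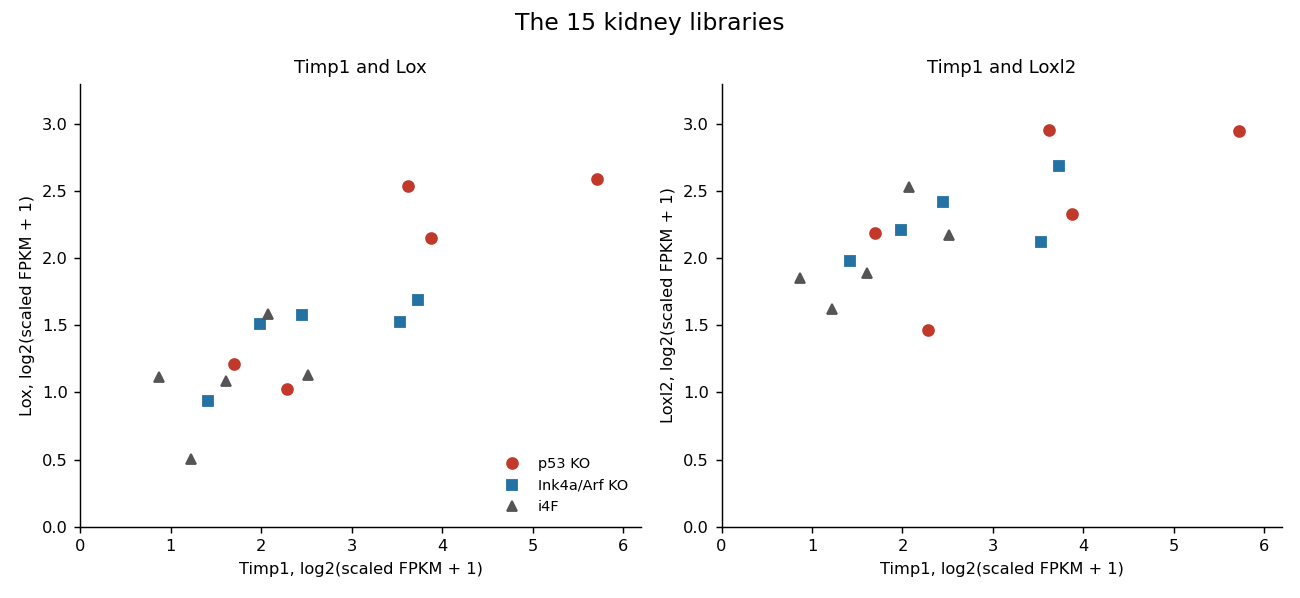
Scaled level of Timp1 against Lox (left) and Loxl2 (right) as log2(scaled FPKM + 1) in the 15 kidney libraries, with 1 point per library and symbols for the genotypes. Kidneys high in Timp1 were high in both partners, with r of 0.850 and 0.725, and 3 p53 KO kidneys form the upper end for Lox.

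The same kidneys differed in markers of injured tubules, of which none of 5 passed between p53 KO and i4F. Their summed level was 11214, 876, 1322, 7245 and 3764 FPKM in i4F p53 KO replicates 1 to 5, 337 to 3773 FPKM in i4F Ink4a/Arf KO kidneys and 358 to 1811 FPKM in i4F. Replicate 1 was highest in both this sum and Timp1, while replicate 2 had the next highest Timp1 and the lowest sum of the p53 KO kidneys. The neutrophil genes S100a8, S100a9 and Retnlg rose in p53 KO against i4F kidneys, by 2.43, 2.51 and 2.18 (limma adjusted p = 0.0128, 0.0199 and 0.00628). S100a9 missed the threshold when any 1 of 5 kidneys was left out, namely replicates 1 and 4 of p53 KO and 2, 3 and 5 of i4F (limma adjusted p 0.0503 to 0.0706), and S100a8 without i4F replicate 3 (0.0557). None of 6 fibrillar collagens passed there, with a median of 0.35, and none of 9 Timp1 inducers. The pancreatic transcript Clps was above 100 FPKM in 3 p53 KO kidneys (replicates 2 to 4) and in i4F replicate 5, and without those 4 libraries the Timp1 difference was 2.62 (adjusted p = 0.142). Their part in the members' levels was not tested.

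The difference between libraries labelled p53 KO and i4F was compared between the tissues. In an interaction fit over all 30 libraries, pancreas minus kidney for p53 KO against i4F, 8 of 8 members passed upward as deposited (background 84.6%) and 7 of 8 after scaling (background 21.4%). Scaled differences were 4.05 for Timp1 (SE 0.76, adjusted p = 0.000147), 3.02 for Lox, 2.29 for Loxl4, 1.68 for Timp3 (adjusted p = 0.0128), 1.61 for Loxl2, 1.52 for Loxl1 and 1.40 for Loxl3. Timp2 gave 0.09 (adjusted p = 0.856). The 2 tissues were deposited as separate tables, so only these within-tissue differences were set against each other. Whether a kidney and a pancreas came from the same mouse is not given in the sources used here. The fit took all 30 libraries as independent, so its p-values do not allow for such pairing.

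The genes whose levels ran most like a member's were listed as a description, by Pearson's r over 15 kidneys among 12415 genes. For Timp1 they were Ddx21 (0.93), Tsr1 (0.92) and Cad (0.91), for Loxl2 F2r (0.98), Topbp1 (0.97) and Psd3 (0.96), and for Loxl3 Mmp14 (0.95), Man1c1 (0.94) and Arhgdib (0.94). Loxl4 ran most like Capg (0.93), Bace2 (0.92) and Stc2 (0.91). Over the 10 i4F and i4F Ink4a/Arf KO pancreases, Loxl1 ran most like Nuak2 (0.96), Spon2 (0.95) and Il17ra (0.92), and Timp2 like Itpr1 (0.93), Fzd1 (0.93) and Igfbp5 (0.93). These libraries share their tissue and their scaling.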

How the data were processed

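Per the labels' protocols, RNA with integrity numbers of 7.4 to 9.4 went into stranded poly(A) libraries sequenced to over 24 M mapped reads. The authors deposited FPKM per gene, 1 table per tissue. The submitters' processing notes list Cufflinks 2.2.1, TopHat2 2.0.10, SAMtools 0.1.19, Bowtie 1.0.0, FastQC and the mm10 build. Their roles and any scaling between libraries are not given in the sources used here. No counts were used here, so no counting interval can be given for a gene.

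A gene was tested where 5 or more of a tissue's 15 libraries reached 1 FPKM (12431 genes in kidney, 10781 in pancreas, 13032 for the interaction). Two-sided limma tests (version 3.58.1, R 4.3.3, eBayes with a trend, no covariate) were run on log2(FPKM + 1) and called at a Benjamini-Hochberg adjusted p of 0.05 over all genes tested. The fit was repeated after median-of-ratios scaling (pancreas factors 0.452 to 3.82, kidney 0.908 to 1.14). Ratios of 2 genes used log2 of FPKM + 0.1 and exact permutation tests by direct enumeration, checked on random values against SciPy 1.17.1. The scripts were tested on simulated data. The 9 members and 23 gene lists were chosen with earlier results of these data known. Named list genes were up to 3 called members of smallest p; Bmp1, Mmp2, Mmp14, Eln and genes that fell after scaling were chosen after their values were seen. Alternatives covered pseudocounts, filters, scaling, a replicate block, Xist as a covariate, libraries with much Clps and leaving out each replicate.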

Additional observations from a re-analysis of the deposited data

Results flagged for a closer look

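Among 54 groups of 5 libraries (9 genes, 6 groups), the gap, in log2(FPKM + 1), of one library to its nearest neighbour over the group's range exceeded Dixon's 0.71 in 6, where chance gives about 1 in 20. The low library was p53 KO kidney replicate 5 for Timp3 (0.763) and Loxl1 (0.821). The high library was Ink4a/Arf KO kidney replicate 1 for Loxl1 (0.816), i4F pancreas replicate 4 for Loxl1 (0.715) and Loxl2 (0.731), and replicate 1 of the pancreases labelled p53 KO for Timp4 (0.918).

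The difference between libraries labelled p53 KO and i4F was larger in pancreas than in kidney for every tested member on the deposited scale, by 5.68 for Timp1, 2.03 for Timp2, 3.58 for Timp3, 4.56 for Lox, 3.26 for Loxl1, 3.24 for Loxl2, 2.69 for Loxl3 and 3.59 for Loxl4 (limma interaction, log2), beside a median of 1.40 over all genes. Since 84.6% of all genes passed the same way, and Trp53 in pancreas went against the label, genotype and library make-up cannot be told apart here. After scaling Timp2 gave 0.09 (limma adjusted p = 0.856).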

How the results depend on the processing

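No count of members past the threshold moved by over 1.5 times under any alternative. The deposited Timp2 calls were lost under median-of-ratios scaling (0.11 and 0.31 in pancreas, 0.09 for the interaction). Without counts, precision at low FPKM cannot be given. Calls over all genes moved more: in kidney 32 for p53 KO against i4F became 57 scaled, 17 with the replicate block, 13 with only 2 groups fitted, 244 with Xist as a covariate, 270 without kidneys above 100 FPKM of Clps and 7 to 166 leaving out 1 library, and the 33 against Ink4a/Arf KO became 5 with only 2 groups fitted, 867 without the Clps-rich kidneys and 9 to 326 leaving out 1 library. The highest of both ranges came without p53 KO replicate 2. In pancreas 10070 became 4825 with a filter of 5 FPKM. The cause was not tested for any of these.

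The labels do not say that replicate numbers pair libraries. Between genotypes of the same tissue, at most 3 of 5 same-numbered pairs deviated together (r over 0.1), which cannot show whether the numbers pair libraries. With the number as a block, Timp1 in p53 KO against i4F kidneys kept 1.81 (limma adjusted p = 0.393) and S100a8 missed the threshold (adjusted p = 0.0598). The paired exact test of ratios cannot go below 0.0625.

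Signs of members and ratios turned mostly near 0, while some list genes turned from a rise that passed to a fall that passed. Mmp15, Spint2, Cox17 and Slc31a1 were higher as deposited, at 1.03 to 1.54 leaving out 1 library. They passed as lower after median-of-ratios scaling, so their direction depended on the scaling. On scaling, pancreas p53 KO against i4F gave P4hb -1.97, Ppib -1.90, Ltbp4 -1.31, Mmp15 -0.57, Spint2 -0.88, Cox17 -0.86 and Slc31a1 -0.46. With equal FPKM outside the acinar list P4hb gave -0.504, Ppib -0.44 and Ltbp4 -0.00199, and Ink4a/Arf KO against i4F gave Timp1 -0.043 and Loxl1 -0.036 in pancreas and Loxl1 -0.078 for the interaction. Kidney Loxl1 in Ink4a/Arf KO against i4F gave 0.000379 with a pseudocount of 0.1, 0.0037 scaled, 0.037 outside the acinar list, 0.14 with Xist and 0.082 without kidneys rich in Clps. The last also gave Timp2 -0.16 (p53 KO against i4F) and Loxl2 -0.019 (p53 KO against Ink4a/Arf KO). With Xist, p53 KO against Ink4a/Arf KO kidneys gave Timp2 0.015 and Loxl4 0.19, and Ink4a/Arf KO against i4F pancreases gave Timp2 0.086, Timp3 0.089, Loxl3 0.034 and Loxl4 0.043. With a ratio pseudocount of 1, Lox to Col1a1 gave -0.075 in Ink4a/Arf KO against i4F kidneys, 0.51 in p53 KO against Ink4a/Arf KO kidneys (exact permutation test, adjusted p = 0.238) and -0.87 in p53 KO against i4F pancreases. Loxl1 to Col1a1 gave -0.0038 and Loxl2 to Col1a1 -0.024 in p53 KO against i4F kidneys, and Loxl2 to Col1a1 0.056 in Ink4a/Arf KO against i4F pancreases.

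Leaving out 1 library in turn, p53 KO against i4F kidneys gave Timp2 -0.098 to 0.237, Timp3 -0.381 to 0.119 and Loxl4 -0.0617 to 0.371. Ink4a/Arf KO against i4F kidneys gave Loxl1 -0.140 to 0.124 and Loxl4 -0.0372 to 0.449. Between the knockouts in kidney, Timp1 lay at 0.238 to 1.31, Lox at 0.282 to 0.725, Timp3 at -0.599 to -0.0987, Timp2 at -0.211 to 0.0896, Loxl2 at -0.0544 to 0.376, Loxl3 at -0.0109 to 0.172 and Loxl4 at -0.266 to 0.134. In pancreas, P4hb in p53 KO against i4F lay at -0.0339 to 0.146. Ink4a/Arf KO against i4F pancreases gave Timp1 -0.164 to 0.189, Timp2 -0.479 to 0.00120, Lox -0.0455 to 0.254, Loxl1 -0.0868 to 0.222 and Loxl3 -0.0967 to 0.0242, and the interaction of Loxl1 -0.110 to 0.224. Among ratios, p53 KO against i4F kidneys gave Timp1 to Timp2 1.51 to 2.64, Lox to Col1a1 0.687 to 1.01, Loxl1 to Col1a1 -0.284 to 0.171 and Loxl2 to Col1a1 -0.125 to 0.152. A pair of these passed the exact permutation test only without 1 library, Timp1 to Timp2 without p53 KO replicate 3 (adjusted p = 0.0340) and Lox to Col1a1 without i4F replicate 2 (adjusted p = 0.0298). Ink4a/Arf KO against i4F kidneys gave Timp3 to Timp2 -0.0911 to 0.228 and Loxl2 to Col1a1 -0.315 to 0.0523, and p53 KO against Ink4a/Arf KO kidneys gave Lox to Col1a1 0.436 to 0.729 and Loxl2 to Col1a1 -0.0265 to 0.341. In pancreas, Ink4a/Arf KO against i4F gave Timp3 to Timp2 -0.308 to 0.111 and Loxl2 to Col1a1 -0.267 to 0.0333. Timp3 to Timp2 in p53 KO against Ink4a/Arf KO pancreases lay at 1.30 to 1.75 and passed only without p53 KO replicate 4 (adjusted p = 0.0298).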
